A study of Mus musculus with 9 samples.

Results

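The 9 genes described here encode the EGFR and MET receptors, 2 partner receptors of EGFR and the ligands measured beside them: *Egfr*, *Erbb2*, *Erbb3*, *Met*, *Hgf*, *Tgfa*, *Hbegf*, *Areg* and *Btc*. They were taken by gene name from a table of 43346 genes. Each name matched a single gene. RNA-Seq was carried out on whole liver of C57/BL6 mice aged 12 weeks after 70% partial hepatectomy. The first group, vehicle 0 h, was liver removed at the operation from mice given normal saline (3 livers). The second group, vehicle 40 h, was the regrowing remnant 40 h later in mice given saline (3 livers), and the third, NSC 40 h, was the remnant at the same time in mice given NSC-87877 (NSC), an inhibitor of the phosphatases SHP2 and SHP1, at 7.5 mg/kg per dose and 15 mg/kg per day (3 livers). Dosing began 12 h before surgery by the labels. The 0 h livers had received saline only, so an NSC liver at 40 h differs from them in surgery, in time and in drug. The labels call the samples of a group separate replicates but do not say whether a 0 h and a 40 h liver came from the same mouse.

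EGFR (ErbB1) and MET are the receptor tyrosine kinases that carry most of the direct mitogenic signal to hepatocytes after loss of liver mass. EGFR is activated by a family of ligands made as membrane-bound precursors, among them TGF-alpha, HB-EGF, amphiregulin and betacellulin, and it signals as a pair with itself or with ErbB2 or ErbB3. MET has a single ligand, hepatocyte growth factor (HGF), which in liver is made by nonparenchymal cells such as stellate and sinusoidal endothelial cells and is stored as an inactive precursor. SHP2, the target of NSC, is recruited to these receptors through the docking protein GAB1.

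Libraries held 23997363 to 42887589 counted reads, at which 3 counts correspond to 0.0751 to 0.117 CPM, the unit of counts scaled to a common library size. The reads come from RNA of the whole organ, in which fewer cells of a type and less RNA per cell cannot be told apart. The 8 hepatocyte marker transcripts, including *Alb* and *Apoa1*, summed to between 91494 and 128219 CPM in every library, and no hepatocyte marker was at 0. In a principal component analysis the first component (58.1% of the variance) separated the 0 h livers from all 40 h livers. On the second (13.2%) NSC replicate 1 lay at -31.0, beside the vehicle 40 h livers at -28.1, -23.3 and -13.4 and away from NSC replicates 2 and 3 at 32.5 and 54.0. Results that turn on NSC replicate 1 are therefore given with and without it.

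*Egfr*, *Tgfa* and *Hgf* were the members that rose in the vehicle livers, and the 250 bases upstream of their RefSeq transcription start sites (GRCm38.p6, all on the plus strand, written 5′ to 3′) are printed for that reason. The windows are chr11:16751953-16752202 for *Egfr*, chr6:86194972-86195221 for *Tgfa* and chr5:16553245-16553494 for the first of 2 *Hgf* starts. Capitals mark the GC box (GGGCGG or its reverse complement CCGCCC).
Egfr: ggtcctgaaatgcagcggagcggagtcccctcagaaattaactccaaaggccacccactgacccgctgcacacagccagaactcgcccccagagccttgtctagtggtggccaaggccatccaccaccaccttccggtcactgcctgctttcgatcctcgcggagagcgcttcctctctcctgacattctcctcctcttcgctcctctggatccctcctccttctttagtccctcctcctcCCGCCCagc
Tgfa: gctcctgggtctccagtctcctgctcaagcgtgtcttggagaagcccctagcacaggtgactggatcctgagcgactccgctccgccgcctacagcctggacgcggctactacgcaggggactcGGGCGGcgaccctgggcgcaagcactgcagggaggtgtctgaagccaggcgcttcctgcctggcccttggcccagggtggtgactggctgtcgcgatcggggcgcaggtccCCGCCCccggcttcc
Hgf: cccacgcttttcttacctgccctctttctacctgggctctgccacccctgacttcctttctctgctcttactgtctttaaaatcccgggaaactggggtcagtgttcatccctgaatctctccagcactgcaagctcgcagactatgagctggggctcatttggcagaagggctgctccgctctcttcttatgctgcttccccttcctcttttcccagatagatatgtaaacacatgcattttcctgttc

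The *Egfr* window held a GC box 9 bases before the start, and the *Tgfa* window held GC boxes 126 and 15 bases before it. Neither *Hgf* window held any. A GC box on either strand was present in 32.7% of 32851 RefSeq windows of the same length. None of the 3 genes' windows contained TGANTCA (AP-1, in 6.75% of windows), CACGTG (E-box, 6.02%), TTGCNNAA (C/EBP, 9.56%) or TATAAA (a core promoter box, 12.4%). Of the other members with a RefSeq window, *Met*, whose level was not called changed in any comparison, held TGAGTCA 54 bases and CACGTG 126 bases before its start as well as 3 GC boxes, *Areg* held a GC box and the core promoter box, and *Erbb2* and *Btc* held none of the 5. A match of letters is a description of the window only. No motif searched was held by all 3 genes that rose.

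Regrowth without the drug was examined first, by comparing vehicle 40 h with vehicle 0 h. In the set 4 genes changed: *Hgf* rose 3.32-fold, *Egfr* 1.87-fold and *Tgfa* 1.71-fold, and *Erbb3* fell 1.84-fold. *Met*, *Erbb2*, *Btc* and *Hbegf* did not pass the test, and *Areg* was too low to be tested. A gene was called changed at an adjusted p under 0.05 in edgeR's quasi-likelihood test over all 15024 genes that passed a filter on low counts. By that rule 23.7% of all genes tested were called in this comparison (12.7% higher and 11% lower), against 3 members higher and 1 lower of 8 tested. The 4 called members were also those with an unadjusted p under 0.05 (37% of all genes) and those whose 40 h livers all lay apart from the 0 h livers (46.3% of all genes). Below, CPM are scaled by edgeR's TMM factors, values stand in replicate order, and each log2 fold change is followed by its standard error (SE).

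*Egfr*, the receptor of the 4 EGFR ligands followed here, was read at 419, 619 and 399 CPM in the vehicle 0 h livers, at 685, 1026 and 978 CPM in the vehicle 40 h livers and at 775, 890 and 403 CPM in the NSC livers. All vehicle 40 h livers lay above all 0 h livers, while NSC replicate 3 was at the level of the 0 h livers. The change from 0 h was 0.90 on the log2 scale in vehicle livers (SE 0.29, adjusted p = 0.0429) and 0.53 in NSC livers (SE 0.29, adjusted p = 0.181). The vehicle call was lost without vehicle 0 h replicate 1 (0.81, adjusted p = 0.138), without vehicle 0 h replicate 3 (0.79, adjusted p = 0.143), without vehicle 40 h replicate 2 (0.80, adjusted p = 0.120), without vehicle 40 h replicate 3 (0.84, adjusted p = 0.123) and after a correction for GC content (0.71, adjusted p = 0.0836). Without NSC replicate 3 the NSC livers were called higher than 0 h (0.80, adjusted p = 0.0264). The highest *Egfr* at 0 h, in replicate 2, stood in the library with the highest sum of 15 circadian clock transcripts (870 CPM against 380 and 441 CPM in the other 0 h livers), and the part of time of day in this comparison cannot be told apart from regrowth.

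*Erbb3*, a receptor that binds neuregulins and has little kinase activity of its own, changed in the opposite direction. Its levels were 173, 211 and 193 CPM at 0 h, 76.4, 132 and 106 CPM in vehicle 40 h livers and 73.3, 109 and 70.0 CPM in NSC livers. Every 40 h liver of either treatment lay below every 0 h liver. The log2 fold change was -0.88 in vehicle livers (SE 0.22, adjusted p = 0.0137) and -1.20 in NSC livers (SE 0.22, adjusted p = 0.00188). Leaving out vehicle 40 h replicate 1, the lowest vehicle library, ended the vehicle call (-0.69, adjusted p = 0.0580), whereas the NSC call held in all 18 alternative analyses. Beside these values, the summed hepatocyte markers ranged from 115435 to 120677 CPM at 0 h, from 91494 to 128219 CPM in vehicle 40 h livers and from 95626 to 114318 CPM in NSC livers. Of the 8 markers, 0 were called higher and 1 lower in vehicle (11% of all genes lower), and 0 higher and 2 lower in NSC livers (16.5% of all genes lower). The part of hepatocyte markers in the result was not tested.

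*Erbb2*, the partner receptor that has no ligand of its own, was scarce in all libraries, with 15 to 64 reads. It was measured at 1.01, 1.34 and 1.48 CPM at 0 h, at 1.48, 1.66 and 1.18 CPM in vehicle 40 h livers and at 0.810, 0.985 and 0.587 CPM in NSC livers. The vehicle groups overlapped (0.17, SE 0.32, adjusted p = 0.736), and the highest NSC liver was below the lowest liver of either other group. Against 0 h the NSC difference was -0.68 (SE 0.33, adjusted p = 0.131). The annotated interval of *Erbb2* overlaps that of *Mien1*, which had 1120 to 1727 reads, by a few bases only. *Erbb2* ends at position 98437716 and *Mien1* starts at 98437708. Whether reads were assigned by strand is not given in the sources used here.

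*Met*, the HGF receptor, was not called in any comparison. Its level was 71.0, 64.4 and 57.2 CPM at 0 h, 54.1, 60.8 and 55.8 CPM in vehicle 40 h livers and 81.5, 77.9 and 65.4 CPM in NSC livers. The vehicle groups overlapped, with a log2 fold change of -0.17 (SE 0.14, adjusted p = 0.400), and so did NSC and 0 h, with 0.22 (SE 0.14, adjusted p = 0.234).

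**Figure D1:**
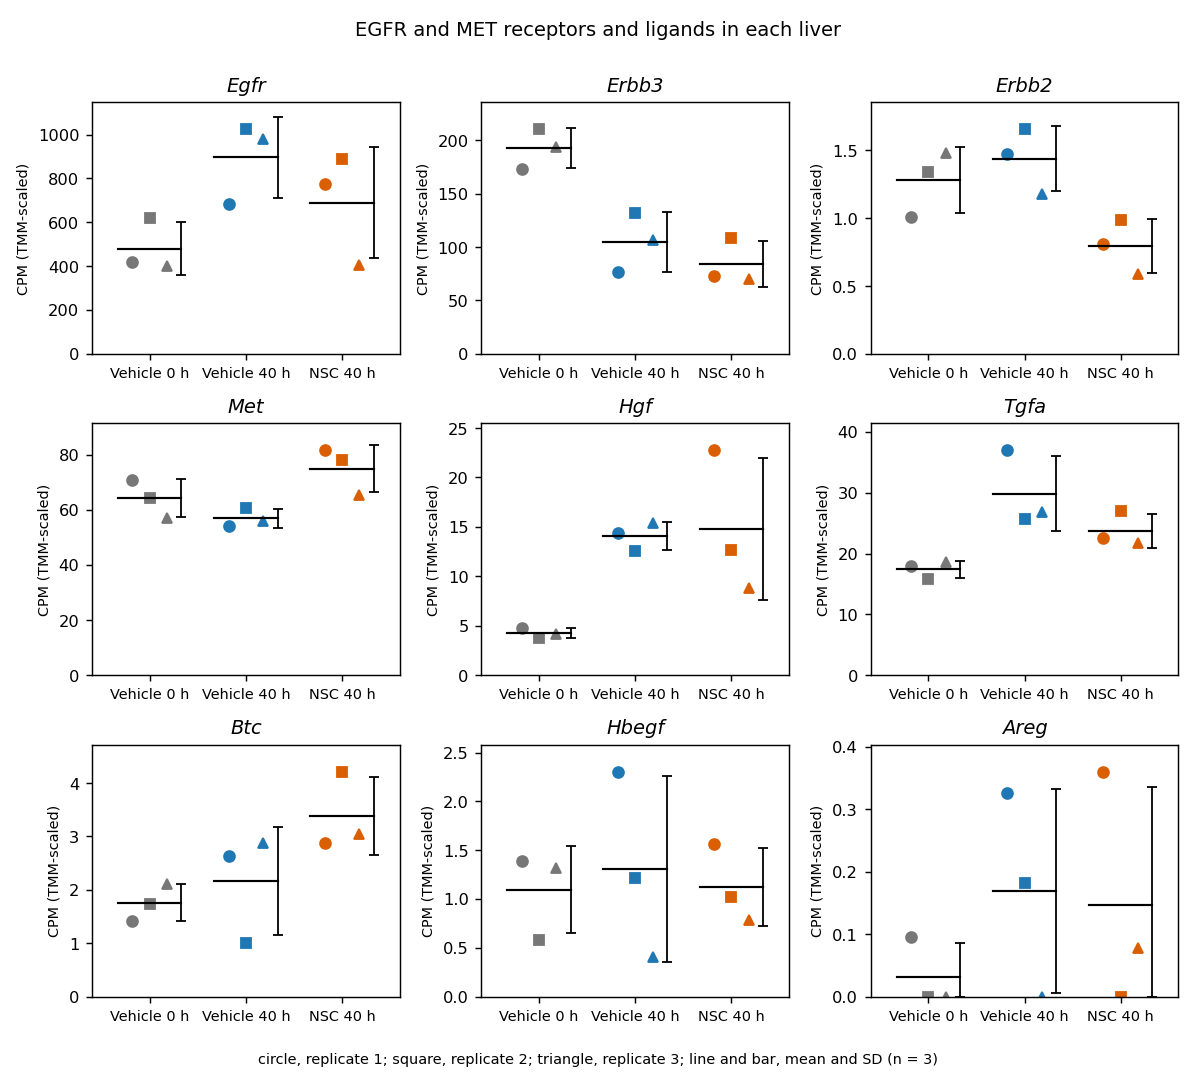
Level of each receptor and ligand in CPM (vertical axis, from 0) in each of the 9 livers, by group, with the group mean (line) and SD (bar, ended at 0 where it would pass below). *Hgf* lay at 3.76 to 4.77 CPM in all 0 h livers and at 8.85 CPM or more in all 40 h livers, and *Erbb3* lay lower at 40 h than at 0 h in all livers.

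*Hgf*, the MET ligand, had the largest change of the set. Its level was 4.77, 3.76 and 4.19 CPM at 0 h, 14.4, 12.5 and 15.4 CPM in vehicle 40 h livers and 22.7, 12.7 and 8.85 CPM in NSC livers. No 40 h liver overlapped with a 0 h liver, and the NSC livers were spread around the vehicle 40 h livers, from below their lowest to above their highest. Against 0 h *Hgf* rose by 1.73 in vehicle livers (SE 0.29, adjusted p = 0.00185) and by 1.80 in NSC livers (SE 0.29, adjusted p = 0.000997), and both calls held in all 18 alternative analyses. Without NSC replicate 1, its highest library, the NSC value was 1.35 (adjusted p = 0.000310). NSC replicate 1 also had the highest sums of stellate cell markers (446 CPM against 288 to 415 CPM elsewhere), sinusoidal endothelial markers (320 CPM against 175 to 305 CPM) and macrophage markers (520 CPM against 165 to 341 CPM). Across groups the 10 stellate markers summed to 333 to 370 CPM at 0 h, 342 to 415 CPM in vehicle 40 h livers and 288 to 446 CPM in NSC livers, with 3 markers called higher and 1 lower in vehicle and 2 higher and 2 lower in NSC against 0 h. The 9 sinusoidal endothelial markers summed to 283 to 305, 175 to 265 and 187 to 320 CPM in the same order, with 0 called higher and 3 lower in vehicle. The 5 mesothelial markers summed to 2.08 to 3.89 CPM at 0 h and 22.0 to 26.9 CPM in vehicle 40 h livers, with 3 called higher, and to 23.1, 13.9 and 1.06 CPM in NSC replicates 1, 2 and 3, with 2 called higher against 0 h. None of these markers was at 0 in a whole group, and their part in the *Hgf* result was not tested.

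*Tgfa*, encoding TGF-alpha, was read at 17.9, 15.9 and 18.5 CPM at 0 h, at 37.0, 25.8 and 26.8 CPM in vehicle 40 h livers and at 22.5, 26.9 and 21.7 CPM in NSC livers. Both 40 h groups lay above 0 h in all livers, and vehicle replicate 1 was the highest. The rise was 0.77 in vehicle livers (SE 0.17, adjusted p = 0.00656), called in all 18 alternatives. In NSC livers the difference of 0.44 (SE 0.17, adjusted p = 0.0599) did not pass the test. It passed in 3 of 18 alternatives, among them the fit without vehicle 40 h replicate 1 (0.44, adjusted p = 0.0470), and the other 2 were the fit on library size alone (0.58, adjusted p = 0.0333) and the fit of only the NSC and 0 h libraries (0.45, adjusted p = 0.0499).

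*Btc*, encoding betacellulin, was at 1.42, 1.74 and 2.11 CPM at 0 h, at 2.63, 1.01 and 2.88 CPM in vehicle 40 h livers and at 2.88, 4.21 and 3.05 CPM in NSC livers. The NSC livers lay above all 0 h livers (0.94, SE 0.37, adjusted p = 0.0653), and the vehicle groups overlapped (0.30, SE 0.37, adjusted p = 0.602). The NSC difference passed in 5 of 18 alternatives, including DESeq2 (0.94, adjusted p = 0.0453) and the fit without vehicle 40 h replicate 2 (0.94, adjusted p = 0.0235). After the GC correction it was 0.26 (adjusted p = 0.589).

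*Hbegf*, encoding HB-EGF, showed no order between groups. It was read at 1.39, 0.580 and 1.32 CPM at 0 h, at 2.30, 1.22 and 0.406 CPM in vehicle 40 h livers and at 1.56, 1.02 and 0.783 CPM in NSC livers. The vehicle and NSC differences from 0 h were 0.28 (SE 0.54, adjusted p = 0.753) and 0.04 (SE 0.55, adjusted p = 0.961) and all groups overlapped. *Areg*, encoding amphiregulin, had 3, 0 and 0 reads at 0 h, 13, 7 and 0 reads in vehicle 40 h livers and 12, 0 and 2 reads in NSC livers. *Areg* did not pass the filter on low counts, so a difference in it was not tested. Its reads varied widely within each 40 h group, and a library with 0 reads allows up to 3 reads.

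Against the same 0 h livers, 2 of the 8 tested members were called changed in NSC livers, *Hgf* higher and *Erbb3* lower, where 34.7% of all genes tested were called (18.2% higher and 16.5% lower). An unadjusted p under 0.05 was found for 4 members (45.2% of all genes), and the livers lay apart from 0 h for 5 (47.1% of all genes). The vehicle and NSC comparisons share the 0 h libraries, so their values are given side by side without a measure of likeness. Expressed as linear folds, the vehicle and NSC values were 3.32 and 3.48 for *Hgf*, 1.87 and 1.44 for *Egfr*, 1.71 and 1.36 for *Tgfa* and 1.23 and 1.92 for *Btc*. *Erbb3* was 1.84-fold lower in vehicle and 2.29-fold lower in NSC livers. That *Egfr* and *Tgfa* passed the test in vehicle and not in NSC livers does not show that the treatments differed, and the difference itself was tested by comparing the 40 h groups directly.

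**Figure D2:**
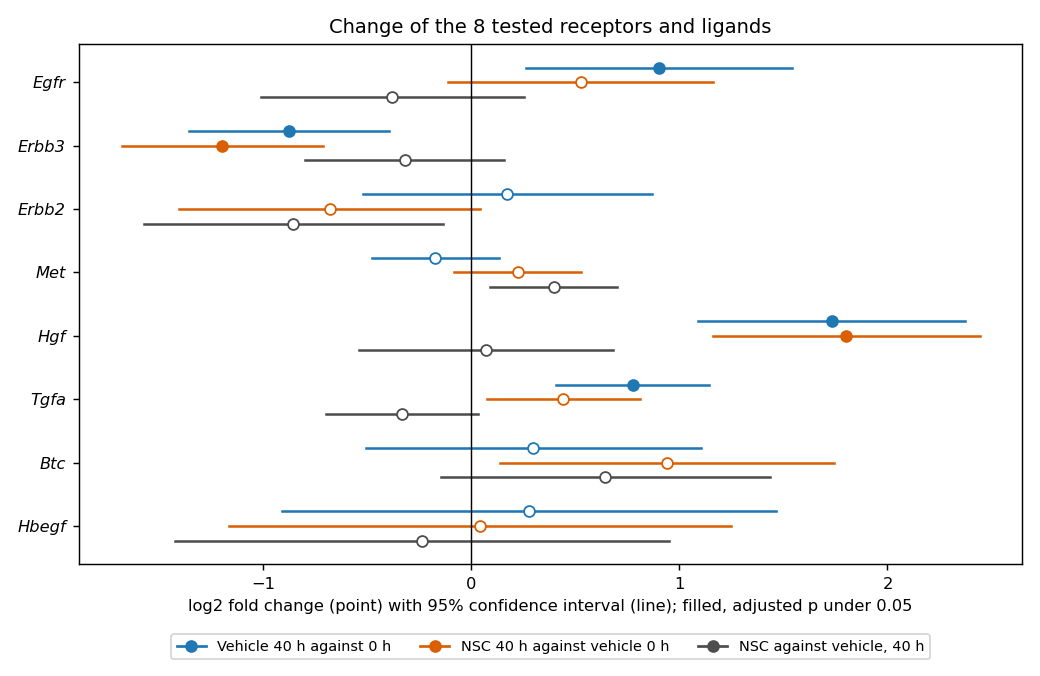
Log2 fold change (horizontal axis) with 95% confidence interval for the 8 tested members in the 3 comparisons, from the edgeR quasi-likelihood fit. Filled points are called at an adjusted p under 0.05, which holds for *Egfr*, *Erbb3*, *Hgf* and *Tgfa* in vehicle livers, for *Erbb3* and *Hgf* in NSC livers against 0 h, and for 0 members between NSC and vehicle.

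The effect of the drug at 40 h was then examined by comparing NSC with vehicle at the same time. No receptor or ligand was called changed by edgeR's quasi-likelihood test, DESeq2 or edgeR's exact test (0 of 8 tested, where 0.0399% of all genes were called by the quasi-likelihood test). At an unadjusted p under 0.05 there were 2 members, *Erbb2* and *Met*, against 19.5% of all genes. *Erbb2* was 1.81-fold lower in NSC livers (log2 fold change -0.85, 95% interval -1.57 to -0.14, edgeR adjusted p = 0.192), and *Met* was 1.32-fold higher (0.40, 95% interval 0.09 to 0.70, edgeR adjusted p = 0.165). In *Erbb2*, *Met* and *Btc* all NSC livers lay on the same side of all vehicle livers, a pattern seen in 22.5% of all genes tested. For *Btc* this was nearly a tie, since NSC replicate 1 and vehicle 40 h replicate 3 were both at 2.88 CPM after rounding. *Btc* differed by 0.64 (95% interval -0.15 to 1.44, edgeR adjusted p = 0.343).

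The remaining intervals show what these 3 livers per group could not separate. *Egfr* differed between NSC and vehicle by -0.38 (95% interval -1.01 to 0.26), *Erbb3* by -0.32 (-0.80 to 0.16) and *Tgfa* by -0.33 (-0.70 to 0.03). *Hgf* differed by 0.07 (-0.54 to 0.68), and without NSC replicate 1 by -0.39 (edgeR adjusted p = 0.253). *Hbegf* had the widest interval, from -1.42 to 0.95.

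Levels of different genes were compared per length, as FPKM, the read count divided by gene length and by the library total. *Egfr* was the most abundant member in every group, at 40.8 ± 10.3 FPKM (SD, n = 3) at 0 h, 76.3 ± 10.9 in vehicle 40 h livers and 64.6 ± 23.2 in NSC livers. *Erbb3* came next at 30.9 ± 3.07, 16.8 ± 3.18 and 14.8 ± 3.26 FPKM, followed by *Met* at 8.06 ± 0.817, 7.2 ± 0.205 and 10.4 ± 1.33 FPKM. The ranges of these 3 receptors were apart in every group. Among ligands *Tgfa* stood above *Hgf* at 0 h, at 1.95 ± 0.160 against 1.48 ± 0.174 FPKM, with ranges apart. At 40 h the order of the means was the opposite, with *Hgf* at 5.0 ± 0.792 and *Tgfa* at 3.41 ± 0.979 FPKM in vehicle livers, where the ranges overlapped, and at 5.74 ± 2.98 and 2.92 ± 0.261 FPKM in NSC livers, where they were apart. In NSC livers the ranges of *Met* and *Hgf* also overlapped. *Btc*, *Hbegf*, *Erbb2* and *Areg* followed in this order of means in all groups, each at 1.5 FPKM or less in every liver, and most neighbours among them overlapped.

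The make-up of the receptor pool was followed within each library as the share of each gene in the summed FPKM of *Egfr*, *Erbb2*, *Erbb3* and *Erbb4*. *Egfr* made up 55.9, 60.6 and 51.9% at 0 h, 82.2, 80.3 and 82.8% in vehicle 40 h livers and 84.6, 81.0 and 75.0% in NSC livers. *Erbb3* made up 43.6, 38.8 and 47.4%, then 17.3, 19.4 and 17.0%, and 15.1, 18.6 and 24.5%. Every 40 h liver thus had a higher *Egfr* share and a lower *Erbb3* share than every 0 h liver. The mean difference from 0 h in the *Egfr* share was 25.6 percentage points in vehicle and 24.1 in NSC livers (exact 2-sided permutation test, p = 0.1 each, the smallest that 3 against 3 can give, adjusted p = 0.15). NSC and vehicle livers overlapped (exact permutation p = 0.8).

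*Hgf* reached 0.187, 0.163 and 0.204 of the *Met* FPKM at 0 h, 0.741, 0.574 and 0.767 in vehicle 40 h livers and 0.777, 0.453 and 0.377 in NSC livers. The ratio was higher in all 40 h livers than in all 0 h livers, by 1.90 on the log2 scale in vehicle and 1.47 in NSC livers (exact permutation p = 0.1 each, adjusted p = 0.15), and NSC and vehicle livers overlapped (exact permutation p = 0.4). The FPKM of 7 EGFR ligands (*Egf*, *Tgfa*, *Hbegf*, *Areg*, *Btc*, *Ereg* and *Epgn*) summed to 3.48, 2.94 and 3.59 at 0 h, 7.15, 3.81 and 4.53 in vehicle 40 h livers and 5.53, 5.36 and 4.38 in NSC livers, again without overlap between 0 h and 40 h (exact permutation p = 0.1 each, adjusted p = 0.15). Vehicle 40 h replicate 1 held the highest sum, and without it the vehicle difference fell from 1.83 to 0.831 FPKM. The 7 cholangiocyte markers were higher at 40 h as well, at 76.7 to 123 CPM against 38.2 to 41.2 CPM at 0 h, and their part in the receptor and ligand results was not tested. *Tgfa* supplied 52.0 to 70.6% of this sum in every liver.

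**Figure D3:**
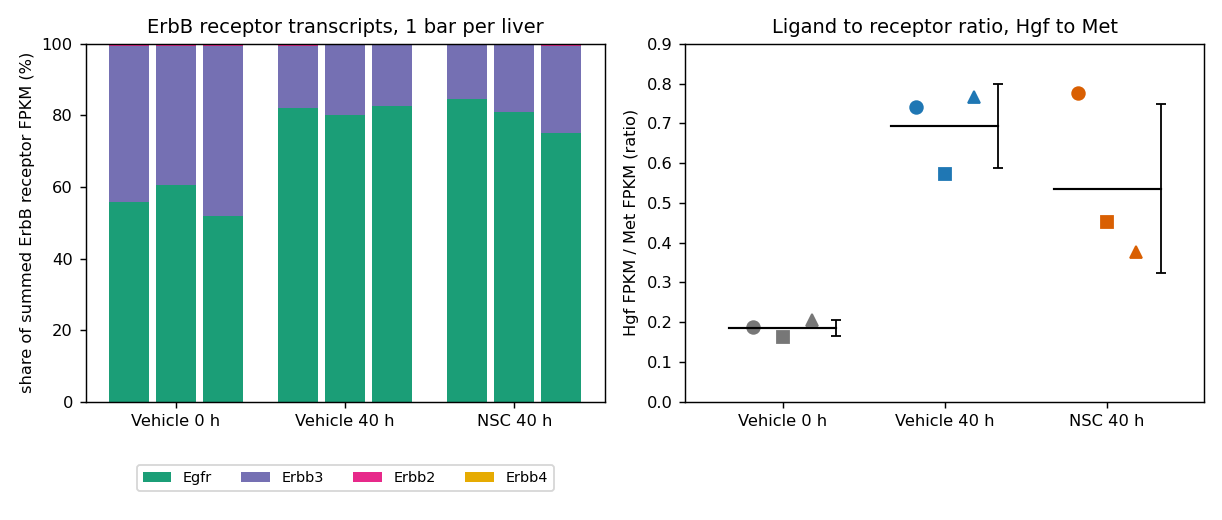
Left, share of each ErbB receptor gene in their summed FPKM (vertical axis, percent), 1 bar per liver, where *Erbb2* and *Erbb4* are under 0.5% and barely visible. Right, ratio of *Hgf* to *Met* FPKM in each liver (circle, square and triangle for replicates 1, 2 and 3) with mean and SD, which is 0.163 to 0.204 at 0 h and 0.377 to 0.777 at 40 h.

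Around the receptors, 9 lists of pathway genes (112 genes, 107 tested) gave 16 genes higher and 10 lower in vehicle 40 h livers against 0 h, or 24.3% against 23.7% of all genes. In NSC livers 21 were higher and 19 lower, or 37.4% against 34.7%. Between NSC and vehicle the quasi-likelihood test called 0 of 107 (0.0399% of all genes), DESeq2 called 11 and edgeR's exact test 3, all lower in NSC. Of all genes, DESeq2 called 276 higher and 457 lower, and the exact test 60 higher and 196 lower. An unadjusted p under 0.05 was found for 29 of the 107 (27.1%, against 19.5% of all genes). Without NSC replicate 1 the quasi-likelihood test called 7 (1 higher and 6 lower), where 574 of all genes were higher and 420 lower. Without vehicle 40 h replicate 3 it called 2, both lower, where 17 of all genes were higher and 94 lower. Without any other single library it called 0 of the lists. After GC correction 14 pathway genes were higher and 18 lower in vehicle, and 15 higher and 23 lower in NSC. The counts for all genes were then 1685 higher and 2505 lower in vehicle, and 1912 higher and 2662 lower in NSC. Genes named in the next paragraphs kept their call without each library in turn unless stated.

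The other ErbB receptor, *Erbb4*, fell to 0.851, 0.544 and 0.664 CPM in vehicle 40 h livers from 2.15, 3.6 and 1.98 CPM at 0 h, without overlap. The log2 fold change was -1.90 (SE 0.40, adjusted p = 0.00550). In NSC livers it was at 1.02, 2.48 and 1.33 CPM, all above the vehicle livers, with differences of -0.68 from 0 h (adjusted p = 0.184, and -1.23 with adjusted p = 0.0302 after GC correction) and 1.22 from vehicle (adjusted p = 0.148, and 0.0439 without NSC replicate 1, where it was 1.47). *Nrg1*, a neuregulin that binds ErbB3 and ErbB4, rose from 0.158, 0.122 and 0.198 CPM at 0 h to 2.43, 0.544 and 0.480 CPM in vehicle livers (2.85, adjusted p = 0.0132) and 1.35, 1.87 and 0.744 CPM in NSC livers (3.03, adjusted p = 0.00671). Its vehicle call was lost without vehicle 40 h replicate 1 (1.67, adjusted p = 0.0647). *Egf*, encoding the family's founding ligand, was at 0.509 to 1.74 CPM in all libraries. Its log2 fold changes were -0.64 in vehicle (adjusted p = 0.203) and -1.02 in NSC livers (adjusted p = 0.0451), and the NSC call held in 2 of 9 analyses that left out a library, with values of -1.25 to -0.84.

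Of 7 tested genes for shedding of EGFR ligands, 3 were higher and 0 lower in vehicle and likewise in NSC livers, the metalloproteases *Adam10*, *Adam12* and *Adam17*. *Adam12* rose by 3.19 in vehicle livers (adjusted p = 0.00152), from a mean of only 0.263 CPM at 0 h to 2.43 CPM. It did not pass the filter of 10 counts in every library. *Adam10* and *Adam17*, the main sheddase of TGF-alpha, rose by 0.91 (adjusted p = 0.000929) and 0.70 (adjusted p = 0.00371) in NSC livers, the latter 0.35 after GC correction (adjusted p = 0.0557). The remaining calls depended on single libraries, with *Adam17* in vehicle (0.46 to 0.62) held in 6, *Adam10* in vehicle (0.42 to 0.61) in 5 and *Adam12* in NSC (0.92 to 2.02) in 1 of 9 analyses that left out a library. GC correction left 1 higher gene in each comparison. It ended the vehicle calls of *Adam10* (0.32, adjusted p = 0.0614) and *Adam17* (0.36, adjusted p = 0.0575) and the NSC call of *Adam12* (1.53, adjusted p = 0.0581). Between NSC and vehicle *Adam12* differed by -1.62 and was not called (adjusted p = 0.120). That difference passed in DESeq2 (adjusted p = 0.0312) and without NSC replicate 1 (-2.27, adjusted p = 0.0154).

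Among 12 genes for activation of the HGF precursor, 3 were higher and 3 lower in vehicle livers, and 3 higher and 5 lower in NSC livers. Leaving out single libraries gave 3 to 4 higher and 2 to 3 lower in vehicle, and 1 to 3 higher and 5 lower in NSC livers. After GC correction 3 were higher and 3 lower in vehicle, and 1 higher and 4 lower in NSC livers. *Hgfac*, the HGF activator protease secreted by hepatocytes, fell from 215, 310 and 267 CPM at 0 h to 128, 185 and 125 CPM in vehicle 40 h livers and to 77.3, 69.2 and 75.4 CPM in NSC livers. The 3 groups did not overlap. The log2 fold change from 0 h was -0.85 in vehicle (SE 0.19, adjusted p = 0.00773) and -1.83 in NSC livers (SE 0.20, adjusted p = 7.85e-05). NSC and vehicle differed by -0.98, which did not pass the quasi-likelihood test (adjusted p = 0.0849) and passed in DESeq2 (adjusted p = 0.000770), in edgeR's exact test (adjusted p = 0.00319) and without NSC replicate 1 (-1.02, adjusted p = 0.0165) or vehicle 40 h replicate 3 (-1.09, adjusted p = 0.0487). Also lower were *Klkb1*, plasma kallikrein (-0.83 in vehicle, adjusted p = 0.00155, and -0.64 in NSC, adjusted p = 0.00430), and *Tmprss6* (-0.61 in vehicle, adjusted p = 0.0204, and -1.03 in NSC, adjusted p = 0.000919). The vehicle call of *Tmprss6* held in 6 of 9 analyses that left out a library. In NSC livers *F12*, coagulation factor XII, was lower as well (-1.02, adjusted p = 0.00224). *Tmprss2*, a membrane serine protease, rose by 1.63 in vehicle (adjusted p = 0.000421) and 1.25 in NSC livers (adjusted p = 0.00122), and *Plat*, tissue plasminogen activator, and *Plaur*, the urokinase receptor, rose by 2.81 (adjusted p = 0.00419) and 2.57 (adjusted p = 0.00303) in vehicle livers. Their 0 h means were only 0.337 and 0.278 CPM, and neither passed the filter of 10 counts in every library. In NSC livers *Plat* rose by 1.85 (adjusted p = 0.0251), held in 6 of 9 analyses that left out a library. It was lost without NSC replicate 1 (0.82, adjusted p = 0.157). *Plau* in NSC livers (0.91, adjusted p = 0.0483) held in 1 of 9. GC correction ended the NSC calls of *Plat* (1.54, adjusted p = 0.0643) and *Plau* (0.77, adjusted p = 0.0838).

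*Mst1*, the HGF-like ligand of the receptor gene *Mst1r*, fell by 0.76 in NSC livers against 0 h (adjusted p = 0.00524), and its vehicle value was -0.07 (adjusted p = 0.806). Compared directly, NSC and vehicle differed by -0.69, which did not pass the quasi-likelihood test (adjusted p = 0.0907). The difference passed in DESeq2 (-0.68, adjusted p = 0.0103) and without a filter (-0.70, adjusted p = 0.0497), and in no fit that left out a library.

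**Figure D4:**
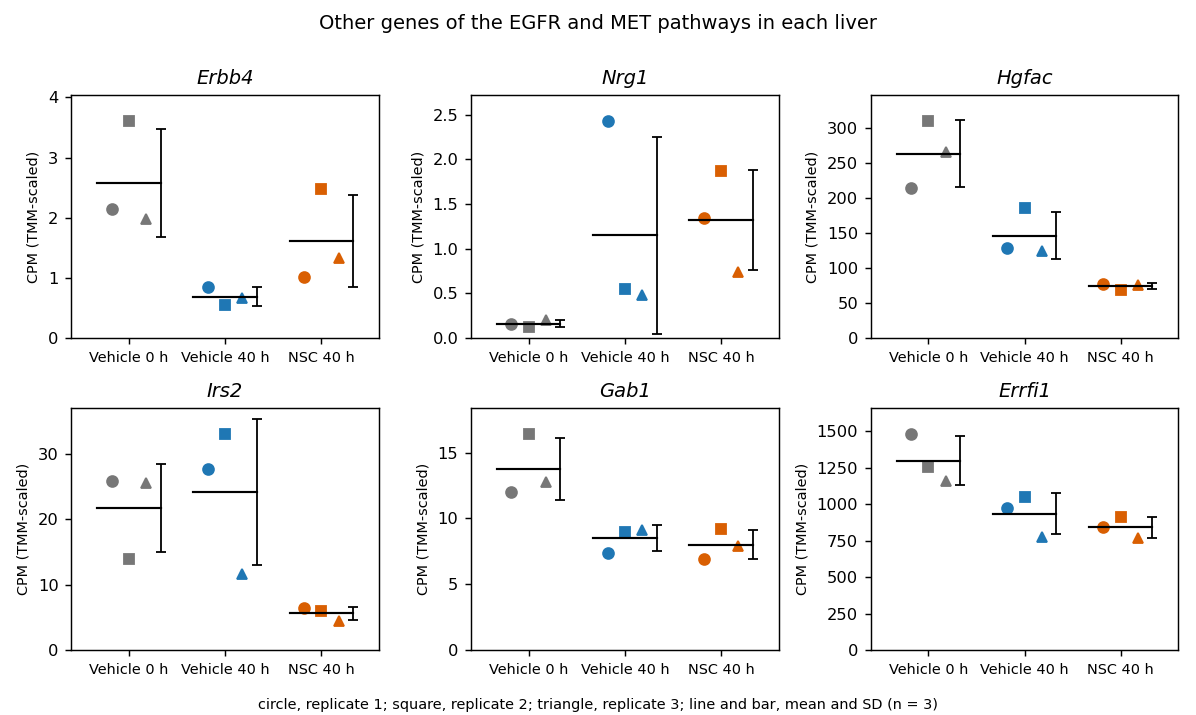
Level in CPM (vertical axis, from 0) of 6 other genes of the pathway in each liver, with mean (line) and SD (bar, ended at 0 where it would pass below). *Hgfac* fell from 215 to 310 CPM at 0 h to 125 to 185 CPM in vehicle and 69.2 to 77.3 CPM in NSC livers, and *Irs2* was at 4.54 to 6.42 CPM in NSC livers and at 11.6 CPM or more in all others.

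Of the 18 adaptor genes, 1 was higher and 4 lower in vehicle livers, and 3 higher and 4 lower in NSC livers. The vehicle counts ranged over 1 to 3 higher and 1 to 4 lower when a library was left out, with 1 lower without vehicle 40 h replicate 1 and 3 higher without vehicle 40 h replicate 2 or NSC replicate 1. *Grb7* (-0.58, adjusted p = 0.0334) and *Sos1* (-0.45, adjusted p = 0.0492) held their vehicle calls in 5 and 2 of these 9 analyses. *Ptpn11*, which encodes SHP2, was at 70.1 to 94.5 CPM in all libraries and was not called in any comparison (0.19, 0.12 and -0.07, adjusted p = 0.335, 0.518 and 0.809). *Gab1* fell from 12.0, 16.4 and 12.7 CPM to 7.36, 8.99 and 9.12 CPM in vehicle livers (-0.70, adjusted p = 0.0179) and 6.96, 9.17 and 7.94 CPM in NSC livers (-0.78, adjusted p = 0.00727). Its vehicle call was lost without vehicle 0 h replicate 2 (-0.54, adjusted p = 0.0774) or vehicle 40 h replicate 1 (-0.60, adjusted p = 0.0850). *Plcg1*, a phospholipase that docks on EGFR and MET, fell by 0.71 in vehicle (adjusted p = 0.00526) and 0.91 in NSC livers (adjusted p = 0.000911), and *Grb10*, an adaptor, rose by 1.19 (adjusted p = 0.00256) and 0.80 (adjusted p = 0.0140). *Irs2*, an insulin receptor substrate, fell by 1.93 in NSC livers against 0 h (adjusted p = 0.00460). Its difference between NSC and vehicle was -2.09 (adjusted p = 0.0849, with 7.78e-06 in DESeq2, 2.83e-05 in edgeR's exact test, and 0.0298 without vehicle 40 h replicate 3, where it was -2.42), with 5.68 ± 1.00 CPM against 24.1 ± 11.2 CPM (SD, n = 3).

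Of the 24 genes of the RAS, ERK and PI3K core, 2 were higher and 1 lower in vehicle livers, and 4 higher and 4 lower in NSC livers. Leaving out single libraries gave 1 to 4 higher and 1 to 2 lower in vehicle, and 3 to 6 higher and 3 to 5 lower in NSC livers, the highest counts of higher genes without NSC replicate 3. After GC correction 3 were higher and 8 lower in vehicle, and 4 higher and 7 lower in NSC livers. Lower calls also outnumbered higher ones in all genes after this correction (2505 against 1685 in vehicle, 2662 against 1912 in NSC livers). *Pik3r3*, a regulatory subunit of PI3K, rose by 1.38 (adjusted p = 0.00693) and 1.72 (adjusted p = 0.00151), and *Araf*, a RAF kinase, fell by 0.75 in NSC livers (adjusted p = 0.00155). *Pdk1*, the lower gene in vehicle livers (-2.02, adjusted p = 0.000877), encodes a mitochondrial pyruvate dehydrogenase kinase and does not belong to the PI3K pathway. Of 25 genes that restrain EGFR and MET, 2 were higher and 1 lower in vehicle and 5 higher and 4 lower in NSC livers. The NSC counts ranged over 2 to 6 higher and 2 to 4 lower when a library was left out, with 2 higher without vehicle 0 h replicate 3 or NSC replicate 1 and 2 lower without vehicle 0 h replicate 1. GC correction left 2 higher and ended the NSC calls of *Ptpn2* (0.83 to 0.24, adjusted p = 0.203), *Socs4* (0.88 to 0.24, adjusted p = 0.344) and *Eps15* (0.51 to -0.01, adjusted p = 0.946). The NSC calls of *Socs4* and *Eps15* held in 7 and 4 of 9 analyses that left out a library. Both were lost without NSC replicate 1 (0.74, adjusted p = 0.0525, and 0.43, adjusted p = 0.0723). The phosphatase gene *Ptpn1* rose by 0.97 (adjusted p = 0.00109) and 0.60 (adjusted p = 0.00933). *Errfi1*, an inhibitor of the EGFR kinase, fell by 0.63 in NSC livers (adjusted p = 0.0183), a call lost without vehicle 0 h replicate 1 (-0.52, adjusted p = 0.0821) and on library size alone (-0.49, adjusted p = 0.0528). Its vehicle value of -0.48 (adjusted p = 0.0746) passed in DESeq2 (-0.49, adjusted p = 0.0239) and after GC correction (-0.59, adjusted p = 0.0225). Of 9 co-receptors, 3 were higher in vehicle and 2 in NSC livers, with 0 lower in either. Leaving out single libraries gave 1 to 4 higher in vehicle and 2 in NSC livers, and GC correction gave 1 and 4. The vehicle count was 1 without vehicle 0 h replicate 2, vehicle 40 h replicate 2 or vehicle 40 h replicate 3. The vehicle calls of *Nrp1* (0.68, adjusted p = 0.0244) and *Gpc3* (1.25, adjusted p = 0.0444) held in 4 and 3 of 9 such analyses and were lost after GC correction (0.48, adjusted p = 0.0763, and 1.14, adjusted p = 0.0584). *Plxnb1*, a plexin that pairs with MET, rose by 0.95 in vehicle (adjusted p = 0.00761), and *Cd44* and *Nrp1* rose by 1.51 (adjusted p = 0.00927) and 1.04 (adjusted p = 0.00200) in NSC livers. Beside these 2, the 9 macrophage markers summed to 174 to 245 CPM at 0 h, 165 to 300 CPM in vehicle 40 h livers and 318 to 520 CPM in NSC livers, with 5 called higher and 0 lower in NSC, and their part was not tested.

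Across the 9 libraries the genes whose log2 CPM followed each member most closely were listed as a description, among 11410 genes with a mean log2 CPM over 1. The libraries share their group and depth, which such values contain. *Eif1a* followed *Hgf* with Pearson r = 0.984, *Lrrc59* followed *Tgfa* with r = 0.971, *Zbed4* followed *Egfr* with r = 0.953 and *Aldh1l1* followed *Erbb3* with r = 0.968. For *Erbb2* the closest was *Cabin1* (r = 0.969), for *Btc* *Cdk7* (r = 0.945), for *Hbegf* *Glb1l* (r = 0.879), and for *Met*, after a gene whose symbol the table had turned into a date, *Cul3* (r = 0.944). Between members the highest value was 0.765, for *Hgf* and *Tgfa*, and the lowest was -0.824, for *Erbb3* and *Hgf*.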

How the data were processed

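Whole-liver RNA-Seq (stranded, poly(A)-selected, paired-end libraries) was analysed from 9 livers in 3 groups. Reads were aligned with STAR 2.6.1 and counted with featureCounts of Subread 1.5.1 by the authors, and the deposited table gives gene counts and FPKM per library. The FPKM were made by the authors from these counts, gene length and library total. The human build hg38 is named in the submitters' processing notes, but the table lists mouse genes in GRCm38 coordinates. The 37 mitochondrial genes are listed at 0.

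Counts were tested with edgeR 4.0.16 (R 4.3.3, TMM factors, filterByExpr, robust quasi-likelihood fit of all 9 libraries, group as the only term), and p-values were adjusted by the Benjamini-Hochberg method over 15024 genes. Totals were 23997363 to 42887589 counts per library. Intervals are 95% intervals over replicates, and the floor of 3 counts covers counting error only. The paper's figure legends call the samples of a group biological replicates, so p-values measure the spread between these livers, any technical spread included. Whether a 0 h and a 40 h liver came from the same mouse is not stated. Shares, sums and ratios of FPKM were compared by exact permutation tests, adjusted over the 3 comparisons. Alternatives were DESeq2 1.42.0, edgeR's exact test, RLE or no composition factors, other filters, a block for replicate number, a fit of 2 groups at a time, a fold threshold and leaving out each library. A GC-content correction was added after seeing the data. The tests were first tried on simulated counts.

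All 9 members are named. Of each pathway list, up to 4 called genes per direction with the smallest p may be named (up to 2 where none was called), and *Egf*, *Erbb4*, *Ptpn11*, *Gab1*, *Errfi1* and *Hgfac* always. A gene of these lists is not reported here. The members and lists were chosen with earlier results of these data known. Promoter windows are from RefSeq for 7 of 9 members, and the windows of *Erbb3* and *Hbegf* were not used here. Deviations of same-numbered replicates of different groups correlated at -0.048 to 0.134 (3 pairs in each of 3 group pairs). Those of differently numbered replicates correlated at -0.115 to 0.0659. With 3 livers per group these values cannot show whether 2 livers came from the same mouse. The main fit used no pairing, and the block for replicate number is given as an alternative.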

Additional observations from a re-analysis of the deposited data

How the results depend on the processing

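With 3 livers per group, *Met*, *Erbb2* and *Btc* were not called between NSC and vehicle (edgeR adjusted p = 0.165, 0.192 and 0.343). The smallest change that the test could call was not determined. *Hbegf*, *Erbb2* and *Areg* were also limited by depth. Over 18 alternatives each, *Hgf* kept its call in both comparisons with 0 h, *Tgfa* in vehicle livers and *Erbb3* in NSC livers, and no member was called between NSC and vehicle. Directions that changed belonged to uncalled values. *Hbegf* in NSC against 0 h was -0.012 with the replicate block, and over the fits without a library -0.27 to 0.25, being -0.26 without vehicle 0 h replicate 2 and -0.27 without NSC replicate 1. In vehicle against 0 h it was -0.03 without vehicle 0 h replicate 2 and -0.40 without vehicle 40 h replicate 1 (range -0.40 to 0.69), and between NSC and vehicle 0.44 without vehicle 40 h replicate 1 (range -0.64 to 0.44). *Hgf* between NSC and vehicle was -0.0073 with the replicate block, -0.29 with GC correction, -0.01 without vehicle 40 h replicate 2 and -0.39 without NSC replicate 1 (range -0.39 to 0.33). *Met* in NSC against 0 h was -0.095 with GC correction. The cause of these shifts was not tested.

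Requiring a log2 change over 1.5 left 1 member, *Hgf*, in each comparison with 0 h and 1085, 1222 and 3 genes in all (vehicle and NSC against 0 h, then NSC against vehicle). Members called in NSC against 0 h numbered 4 on library size alone and 4 with only the 2 groups in the fit, where *Btc* and *Tgfa* were added. Of all genes, NSC against vehicle gave 6 calls, and 733 with DESeq2, 256 with edgeR's exact test, 221 without a filter, 1 on library size alone and 0 with GC correction. Leaving out single libraries gave 2285 to 4538 genes in vehicle and 3604 to 5234 in NSC against 0 h, and 0 to 994 in NSC against vehicle, the highest without NSC replicate 1, and the members called ranged from 3 to 4, 2 to 3 and 0 to 0. On library size alone the median of all genes was 0.15 in NSC against 0 h and 0.14 in NSC against vehicle, against 0.013 and 0.015 with TMM, and 65.4% of NSC calls against 0 h were higher, against 52.4%. With GC correction 40.2% (vehicle) and 41.8% (NSC) of calls against 0 h were higher, against 53.7% and 52.4%. The median of all genes then moved to -0.090 (vehicle) and -0.067 (NSC), from 0.013 in both. Calls of higher genes lost after this correction thus include a shift common to all genes.

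With the replicate number as a block, 4, 2 and 0 members and 3578, 5178 and 11 genes were called. The blocked fit changed no call of a member. With CPM in place of FPKM, the *Egfr* share differed from 0 h by 18.9 (vehicle) and 17.8 (NSC) percentage points, *Erbb3* by -18.6 and -17.5, and *Erbb4* by -0.302 and -0.159, and the EGFR ligand sum differed by 13.0 and 7.67 CPM from 0 h and by -5.35 CPM between NSC and vehicle.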
